A study of Bos taurus with 6 samples.

Results

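The receptors through which blood cells sense interleukins, interferons and colony-stimulating factors were followed in whole blood of fat-1 transgenic and wild type cattle. Members were every probe, controls apart, whose gene name on the array was IL followed by digits and R, other than names starting IL1R or IL8R, or was IFNAR1, IFNAR2, IFNGR1, IFNGR2, CSF2RA, CSF2RB, CSF3R, IL6ST, OSMR or LIFR. The rule found 74 probes of 38 genes, among 43653 probes and 15072 genes with a symbol. No probe was annotated to CSF2RA or to CSF3R, and IL9R, IL3RA and IL18R1 were not among the genes found either. Each gene is represented by its brightest probe over the 6 arrays, and its other probes are given beside it.

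The study compared 3 female cattle carrying fat-1 with 3 female wild type cattle, with jugular blood of each animal on 1 array. The fat-1 gene of Caenorhabditis elegans encodes a desaturase that makes omega-3 from omega-6 fatty acids, a step that mammals lack. The age was 3.5 years for fat-1 replicate 1 and 3 years for each of the other 5 animals. The promoter of the transgene, and whether the fat-1 animals descend from 1 founder clone, are not given in the sources used here.

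Most of these receptors belong to the class I and class II cytokine receptor families, which have no enzyme of their own. They signal through JAK kinases bound to their tails, which phosphorylate STAT transcription factors. A cytokine is usually held by a private chain and a shared one: the common gamma chain IL2RG serves IL-2, IL-4, IL-7, IL-15 and IL-21 in lymphocytes, gp130 (IL6ST) serves the IL-6 family, and IL10RB serves IL-10, IL-22 and the lambda interferons. The IL-17 receptors are a separate family that signals through adaptor proteins to NF-kB.

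The 75th percentile of processed intensity was 716 to 1067 in fat-1 and 613 to 887 in wild type animals, 58.4% to 63.5% of probes were well above background, and no spot was saturated. The median intensity of the spike-in transcripts was 9568 for fat-1 replicate 1 and 3467 to 5306 on the other arrays. All fat-1 arrays came from a single slide and scan and all wild type arrays from another, so slide and genotype cannot be told apart in any value given here. Levels are log2 processed intensity relative to the 75th percentile of the same array. They depend on the probe, so a level is compared between animals and not between genes. Defining markers of blood cells were present: 11 of 11 T cell, 8 of 8 B cell and 12 of 12 monocyte markers on the array were measured on at least 3 arrays, as were 8 of 10 neutrophil, 6 of 7 platelet and 9 of 10 red cell markers. The neutrophil markers CXCR2 and ALPL and the red cell marker CA1 lacked signal well above background throughout.

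Of the 38 receptor genes, 25 were measured well enough to be tested, with the brightest probe well above background on at least 3 arrays, and for 24 of them this was so on all 6. The exception was IL17RE, at 4 arrays. The common gamma chain group as found, without IL9R, also counts the IL-13 chains that work with IL4R. All of its chains except the decoy IL13RA2 were measured (8 of 9). So were all the receptors of type I and type II interferon (4 of the 5 interferon receptor genes). In the gp130 and IL-12 group 5 of 10 genes were measured, in the IL-10 family 4 of 6, and in the IL-17 and IL-18 group 4 of 6. Neither gene of the beta common group was measured: CSF2RB, the signalling chain for GM-CSF, IL-3 and IL-5, and IL5RA, the private IL-5 chain, had no signal well above background in either group.

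The other genes without a test were a varied set. IL22RA1, the IL-22 chain of epithelium, its soluble antagonist IL22RA2, the lambda interferon chain IL28RA (current symbol IFNLR1), the IL-31 chain IL31RA, the leukaemia inhibitory factor chain LIFR and IL23R, which marks IL-17 producing lymphocytes, had brightest probes without signal well above background throughout. IL17RD, a less well known member of the IL-17 receptor family, was the same at its brightest probe, and its other probe was well above background on 1 array. The IL-12 chain IL12RB2, the oncostatin M chain OSMR and IL13RA2 were well above background in 1 animal each, and the IL-18 accessory chain IL18RAP in 2. For IL13RA2 that animal was fat-1 replicate 3, at -3.70, with -6.73 and -7.06 in the other fat-1 animals and -7.05 to -6.80 in wild type. Guanine and cytosine made up a median of 45% of the bases both in the 49 receptor probes tested and in the 25 not tested.

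**Figure D1:**
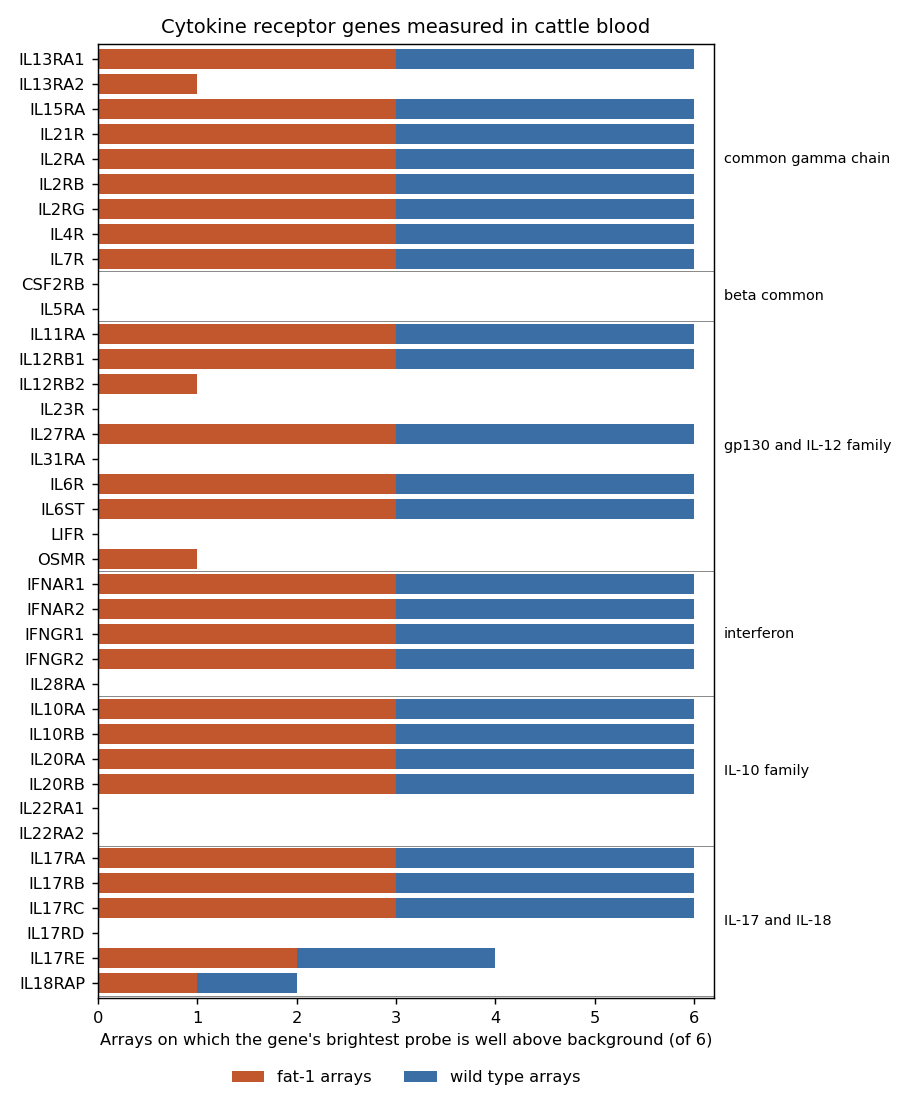
Number of arrays (0 to 6, horizontal axis) on which the brightest probe of each of the 38 receptor genes was well above background, stacked as fat-1 arrays (orange) and wild type arrays (blue), with genes grouped by receptor family. The 24 full bars reach 6 arrays, IL17RE reaches 4, and 9 genes have no bar.

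No receptor gene differed between fat-1 and wild type blood at an adjusted p under 0.05 in limma, of 25 tested. Over the whole array that threshold was passed by 46 of 26823 probes (0.171%), and by 0.17% of 10593 genes with 1 probe each. At an unadjusted p under 0.05 there was 1 receptor gene, IL2RG, where 11.9% of all genes reached that level. The fat-1 animals lay outside the range of the wild type animals for 1 receptor gene, again IL2RG and again lower. Among all genes 20.6% had no overlap, 7.3% higher and 13.3% lower in fat-1 blood. Differences, fat-1 minus wild type, ran from -0.50 to 0.89 on the log2 scale, with 13 of 25 below 0 (52%) where 58% of all genes were. Their median was -0.02 and that of all genes -0.08.

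The receptor genes moved about as far as other genes on the array, with a median size of difference of 0.257 against 0.276. Their standard errors were a little larger, at a median of 0.279 against 0.247. Adjusted p ranged from 0.387 to 0.985. A p above the threshold does not show that levels were equal: the 95% interval reached a median of 0.637 to each side, and it lay inside 1 log2 unit either way, that is a 2-fold change, for 15 of the 25 genes and reached past it for 10. In whole blood, fewer cells of a type and less RNA per cell cannot be told apart.

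**Figure D2:**
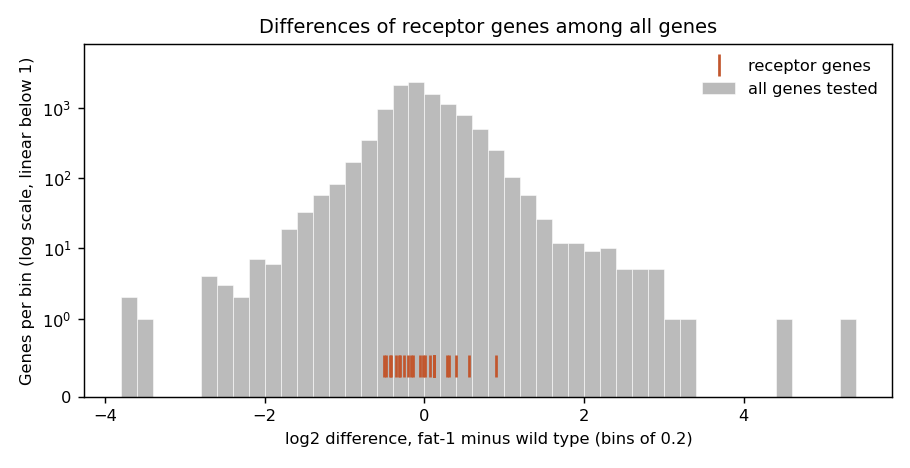
Differences between fat-1 and wild type blood (horizontal axis, log2, bins of 0.2) for the 10593 genes tested (grey bars, number of genes on a log scale) with the 25 receptor genes as orange ticks. The receptor genes lie between -0.50 and 0.89, inside the bulk of all genes.

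IL2RG, the signalling chain that receptors for IL-2, IL-4, IL-7, IL-15 and IL-21 share, was lower in every fat-1 animal than in any wild type animal. Its probe lies at chrX:49336067-49336126 on the plus strand (bovine build Btau_3.1) and read 3.72, 3.89 and 3.79 in fat-1 replicates 1 to 3 and 4.34, 4.52 and 4.03 in wild type replicates 1 to 3. The fat-1 values were close together, and the lowest wild type animal, replicate 3, stood just above the highest fat-1 animal. The difference was -0.50 ± 0.22 (SE), or 0.707 times the wild type level, with a 95% interval from -0.993 to -0.00759. The unadjusted p was 0.0473 and the adjusted p 0.387 in limma, so the difference did not pass. IL2RG has 1 probe on the array, and the last 30 of its 60 bases show what was hybridised there, 5′ to 3′.

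IL2RG: cttgagaaatgccccttgggccgatccatg

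Summed levels of T cell markers were also below the wild type range in the fat-1 animals. All 6 gamma-delta T cell markers tested, of 8 listed, were lower at an unadjusted p under 0.05 in limma, where 6.36% of all genes were lower and 5.58% higher. The median difference was -1.45, and 0 passed the adjusted threshold. The marker lists were chosen with earlier results of these data known, so that count is no independent support. The summed level of these 6 markers, in multiples of the 75th percentile, was 19.0 to 52.8 in fat-1 and 60.3 to 98.7 in wild type blood. For 11 T cell markers the sum was 145 to 225 against 254 to 381, with a median difference of -0.15 and 1 lower at that unadjusted p. A sum weighs the brightest markers most. With the 11 T cell markers weighed alike, as a mean log2 deviation, the groups overlapped. That mean was -0.41, 0.15 and 0.04 in fat-1 and -0.17, 0.25 and 0.15 in wild type replicates 1 to 3. For 8 B cell markers the sum was 60.0 to 65.6 against 67.2 to 111, with a median difference of -0.06 and 4 of 8 above 0. The kinase BLK stands in both the B cell and the gamma-delta list, and without it the B cell sums overlapped, at 38.6 to 49.2 against 40.2 to 81.4. Of the B cell markers 1 was higher and 1 lower at that unadjusted p, and the higher one, CR2, was kept only through the fat-1 arrays and had -0.11 with normexp background correction. None of the markers on the array in these 3 lists was without signal. Their part in the IL2RG difference was not tested.

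The 6 private chains found that pair with IL2RG had differences on both sides of 0, with 4 below and a median of -0.16. IL2RA, the high-affinity IL-2 chain of activated and regulatory T cells, had -0.43 ± 0.30 (adjusted p = 0.510 in limma) at its brightest probe. A second IL2RA probe, at chr13:16315202-16315257, read -0.18, 0.40 and 0.05 in fat-1 and 0.78, 1.31 and 0.34 in wild type animals. Only fat-1 replicate 2 and wild type replicate 3 crossed, and the difference was -0.72 ± 0.29 with an unadjusted p of 0.0389 and an adjusted p of 0.379 in limma. The third IL2RA probe had -0.39, so all of them pointed the same way. IL2RB, the beta chain for IL-2 and IL-15 on T and NK cells, had 0.12 ± 0.51, with fat-1 replicate 1 at -0.95, above every wild type animal (-2.51 to -2.04), and fat-1 replicate 2 at -3.26, below them all.

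IL7R, the receptor of naive T cells and lymphocyte precursors, also varied more between animals of 1 group than between groups. It read -0.93, -0.02 and -2.14 in fat-1 and -1.77, -0.46 and -1.20 in wild type blood. The difference was 0.11 ± 0.53. IL4R, the IL-4 chain that guides B cells and type 2 helper T cells, was the most evenly measured of the group. Its 5 probes gave differences from -0.28 to -0.17, the brightest -0.17 ± 0.26, and none had an unadjusted p under 0.05. IL15RA, which presents IL-15 to neighbouring cells, had -0.32 ± 0.27, with -0.89 at another probe that was well above background on 3 arrays.

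IL21R, the receptor for the helper T cell cytokine IL-21, gave unlike values at its 2 probes. The brightest, at chr25:26745736-26745795, had -0.15 ± 0.28. The other holds 60 bases that the array's annotation places over 464 bases of genome, chr25:26741678-26742141 on the plus strand, so its placement crosses a gap. Whether that gap is an intron was not assigned. This probe is printed whole because its position sets it apart from the brightest one.

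IL21R: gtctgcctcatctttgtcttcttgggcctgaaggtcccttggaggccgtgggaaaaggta

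There the fat-1 animals read -3.49, -3.49 and -3.59 and the wild type animals -2.75, -2.99 and -3.30. The groups did not overlap, with wild type replicate 3 the nearest to the fat-1 animals. The difference was -0.51 ± 0.22, with an unadjusted p of 0.0466 and an adjusted p of 0.387 in limma. With array weights in the fit its adjusted p was 0.0434, the 1 receptor probe of those followed through all alternatives to pass in any of them. In that fit 1971 of 26823 probes passed, against 46 as reported.

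IL13RA1, the chain that joins IL4R to bind IL-13 and is known from monocytes and tissue cells, had the largest difference of the receptor genes. It read -0.48, -0.16 and -1.81 in fat-1 and -2.10, -1.42 and -1.61 in wild type blood. Fat-1 replicates 1 and 2 were above all wild type animals, and replicate 3 was within their range. The difference was 0.89 ± 0.42, with an unadjusted p of 0.0644 and an adjusted p of 0.406 in limma. Replicate 3 was the only fat-1 animal to overlap, so leaving it out had to remove the overlap. In that fit 32.8% of all genes had no overlap. The unadjusted p of IL13RA1 was then under 0.05, as for 9.79% of all genes. Over the alternatives its difference ran from 0.57 to 1.39, and was 0.60 with normexp background correction. Its unadjusted p in limma ran from 0.0018 to 0.222. Monocyte markers moved the same way, with 11 of 12 above 0 and a median of 0.47. Of these, 1 was higher at an unadjusted p under 0.05 in limma, where 5.58% of all genes were. The summed level was 497 to 691 in fat-1 and 421 to 553 in wild type blood, and no marker was without signal. Platelet (6 of 6), red cell (7 of 9) and neutrophil markers (6 of 8) were also mostly above 0, and T cell markers (3 of 11) were not. The part of any of these cells in the IL13RA1 difference was not tested.

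**Figure D3:**
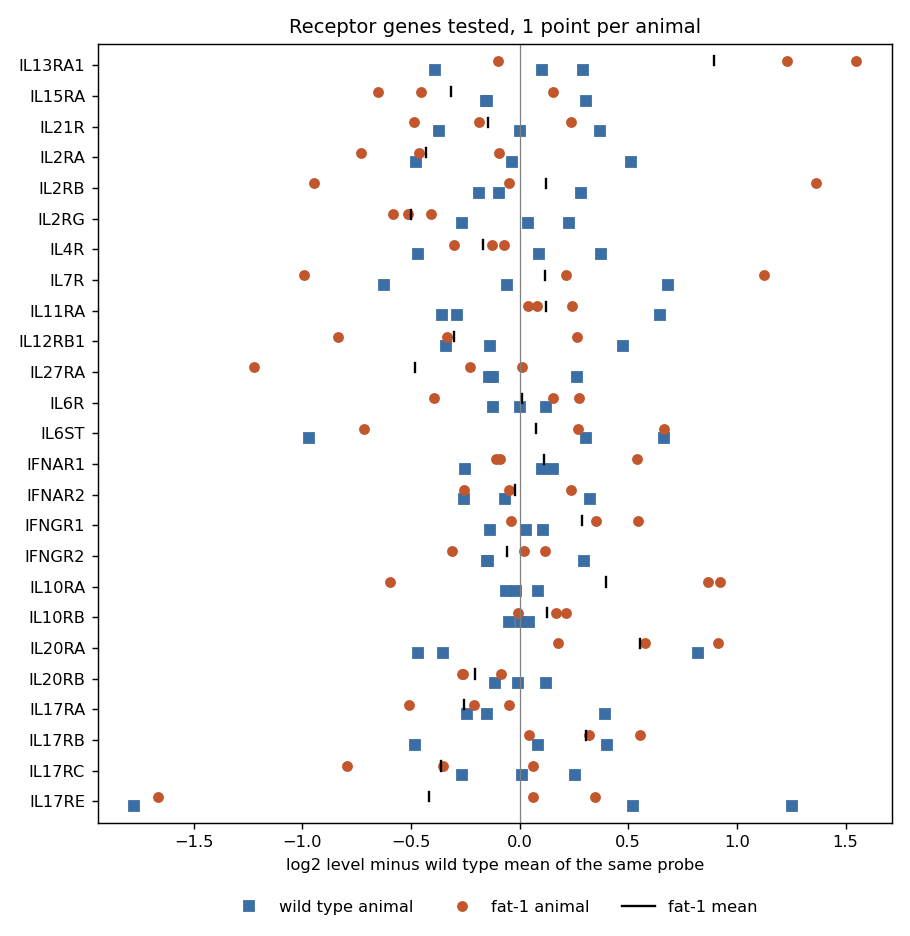
Level of each of the 25 tested receptor genes in each animal (fat-1 orange circles, wild type blue squares), as log2 level minus the wild type mean of the same probe, with the fat-1 mean as a black tick. Only in the IL2RG row do all 3 fat-1 circles lie on one side of all 3 wild type squares, and IL13RA1 has the fat-1 mean farthest from 0, at 0.89.

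The interferon receptors had brightest-probe differences of -0.06 to 0.29, with a median of 0.05 over 4 genes. IFNAR1 and IFNAR2, the chains for the type I interferons of the antiviral response, had 0.11 ± 0.25 and -0.02 ± 0.24, and the other IFNAR2 probe -0.12. IFNGR2, the signalling chain for interferon gamma, had -0.06 ± 0.23, and its other 3 probes -0.08 to 0.02. A pair of the IFNGR2 probes overlap on the minus strand of chromosome 1 and hold the same 30 bases, CACCCATCTCCTGGCTTAAAATGTAATTAA, all in capitals because all are shared. They are in part 1 measurement made by both probes, and they gave 0.02 and -0.06.

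IFNGR1, the ligand-binding chain for interferon gamma, gave one value at its brightest probe and another at the rest. The brightest, at chr9:77385728-77385787, read 4.37, 4.56 and 3.98 in fat-1 and 3.88, 4.13 and 4.05 in wild type blood. The difference was 0.29 ± 0.23 with an unadjusted p of 0.243 and an adjusted p of 0.552 in limma. Fat-1 replicate 3 lay inside the wild type range. At chr9:77385885-77385944 the values were 1.67, 1.99 and 1.99 against 1.48, 0.44 and 1.42, a difference of 0.77 ± 0.31 (unadjusted p = 0.0364, adjusted p = 0.374 in limma). At chr9:77386162-77386221 they were 1.27, 1.40 and 1.45 against 0.90, -0.01 and 0.93, a difference of 0.77 ± 0.29 (unadjusted p = 0.0273, adjusted p = 0.357 in limma). At both of these probes every fat-1 animal was above every wild type animal, and wild type replicate 2 was far below the others. Without that animal the differences were 0.43 and 0.46.

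The brightest IFNGR1 probe is not specific by sequence. It shares runs of at least 25 bases, 41 bases in all, with 7 probes under 5 other names, whereas neither of the other IFNGR1 probes shares such a run with any probe of another name. Of the 74 receptor probes 1 more, the brightest of IL17RA, does so. Over positions 20 to 49 of the IFNGR1 probe, 6 of the 7 could be set beside it without a gap and matched 28 or more of 30 bases. The stretches below are written 5′ to 3′, with capitals for the bases that equal those of the IFNGR1 probe.

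IFNGR1: ATGCATTGGAGAAGGAAATGGCAACCCACT
POLH: ATGCATTGGAGAAGGAAATGGCAACCCACT
ACPP: ATGgATTGGAGAAGGAAATGGCAACCCACT
H2B: ATGCATTGGAGAAGGAAATGGCAACCCgCT
Unnamed transcript: ATGCcTTGGAaAAGGAAATGGCAACCCACT

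Besides the unnamed transcript, the 7 probes carry names such as POLH, a DNA polymerase, and H2B, a histone. They were well above background on all 6 arrays, with differences of -0.01 to 0.39, a median of 0.28, 6 of 7 above 0 and a lowest unadjusted p of 0.136 in limma. The brightest IFNGR1 probe, at 0.29, lay within that range, and the IFNGR1 probes without the stretch, both at 0.77, lay above it. Whether the brightest probe read IFNGR1 RNA, RNA with the shared stretch, or both was not tested. With probes that match other names left out, an alternative chosen after seeing the data, IFNGR1 is represented by the probe at 0.77, and 2 receptor genes instead of 1 had an unadjusted p under 0.05 and no overlap.

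**Figure D4:**
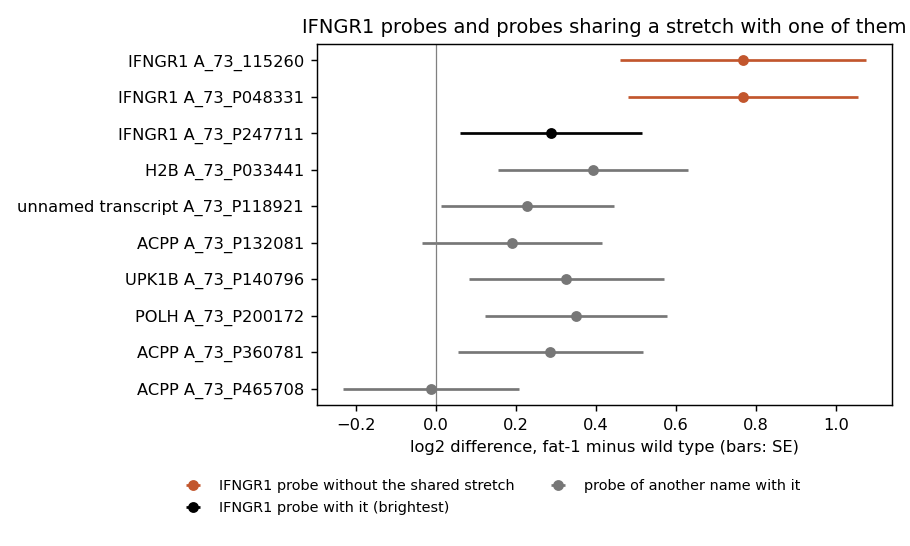
Differences between fat-1 and wild type blood (horizontal axis, log2, bars are the SE of the fit) for the 3 IFNGR1 probes and the 7 probes under other names that share a stretch with the brightest of them (black). The IFNGR1 probes without the stretch (orange) stand at 0.77, and the brightest, at 0.29, lies among the probes of other names (grey, -0.01 to 0.39).

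The IL-10 family had 3 of 4 tested genes above 0, with a median of 0.26. IL10RA, the private IL-10 chain of most leukocytes, read -1.72, -1.67 and -3.18 in fat-1 and -2.61, -2.51 and -2.65 in wild type blood. The difference was 0.40 ± 0.39. Fat-1 replicates 1 and 2 were above and replicate 3 below all wild type animals, and the other IL10RA probes had -0.30 and 0.04, so the gene had no single direction. IL10RB, the shared chain, had 0.12 ± 0.19 with 0.17 and 0.19 at its other probes, and the smallest standard error of the receptor genes. IL20RA and IL20RB, which together form a receptor for IL-19, IL-20 and IL-24 best known from skin, had 0.56 ± 0.37 (adjusted p = 0.492 in limma) and -0.21 ± 0.20. For IL20RB only fat-1 replicate 2 and wild type replicate 1 crossed. After quantile scaling, with normexp background correction and in the authors' value table the animals did not overlap. Quantile scaling and the authors' value table gave almost the same results, with 3701 and 3700 probes at an unadjusted p under 0.05 in limma. They are therefore not separate checks. The share of all genes without overlap was not taken for these settings.

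In the gp130 and IL-12 group the differences had a median of 0.01 over 5 genes. IL6R and IL11RA, the private chains for IL-6 and IL-11, had 0.01 ± 0.24 and 0.12 ± 0.30, and the second IL6R probe -0.01. IL6ST, the shared chain gp130, had 0.07 ± 0.48 at its brightest probe and 0.44 and 0.34 at the others, with a spread between animals that covered all of these. IL12RB1, the chain that IL-12 and IL-23 share on T and NK cells, had -0.30 ± 0.33.

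IL27RA, the private chain for the T cell cytokine IL-27, was lower at both of its probes. The brightest, at chr7:10063627-10063686, had -0.48 ± 0.33 (adjusted p = 0.507 in limma), and there fat-1 replicate 1 stood at 4.27, far below the others at 5.26 and 5.50. At chr7:10066132-10066191 the fat-1 animals read -1.74, -1.72 and -1.39 and the wild type animals -1.13, -1.06 and -0.90. The groups did not overlap there, and the difference was -0.59 ± 0.21, with an unadjusted p of 0.0221 and an adjusted p of 0.349 in limma. Over the alternatives this probe ranged from -0.70 to -0.51.

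In the IL-17 and IL-18 group 3 of 4 tested genes were below 0, with a median of -0.31. IL17RA, the chain common to the IL-17 receptors, had -0.26 ± 0.25 and -0.39 at its other probe. The brightest IL17RA probe shares 55 of its 60 bases with a probe for an unnamed transcript. IL17RC, its partner for IL-17A and IL-17F, had -0.36 ± 0.27, but 0.10 at another probe. IL17RB, the IL-25 chain, had 0.31 ± 0.28, and IL17RE, the IL-17C chain, -0.42 ± 0.79, the widest error of all the receptor genes.

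Probes of a gene did not always give the same direction. Of 14 genes with 2 or more tested probes, all tested probes shared a sign in 10 and differed in sign in 4. In all, 6 of 49 receptor probes had an unadjusted p under 0.05, where 12.8% of all probes did. Of these, 2 were higher, both of IFNGR1, against 6.17% of all probes, and 4 were lower, of IL2RG, IL2RA, IL21R and IL27RA, against 6.66%. No overlap between the groups was seen at 5 probes against 19.6% of all probes, 2 higher against 6.95% and 3 lower against 12.7%. Differences below 0 were found at 28 of the 49 probes, or 57.1%, against 55.3% of all probes. None of the 49 passed the adjusted threshold. The brightest probe was the one farthest downstream on the transcript in 14 of 20 genes with several mapped probes. Whether probes lie in exons or untranslated regions was not assigned, since no annotation of the array's build was used here.

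**Figure D5:**
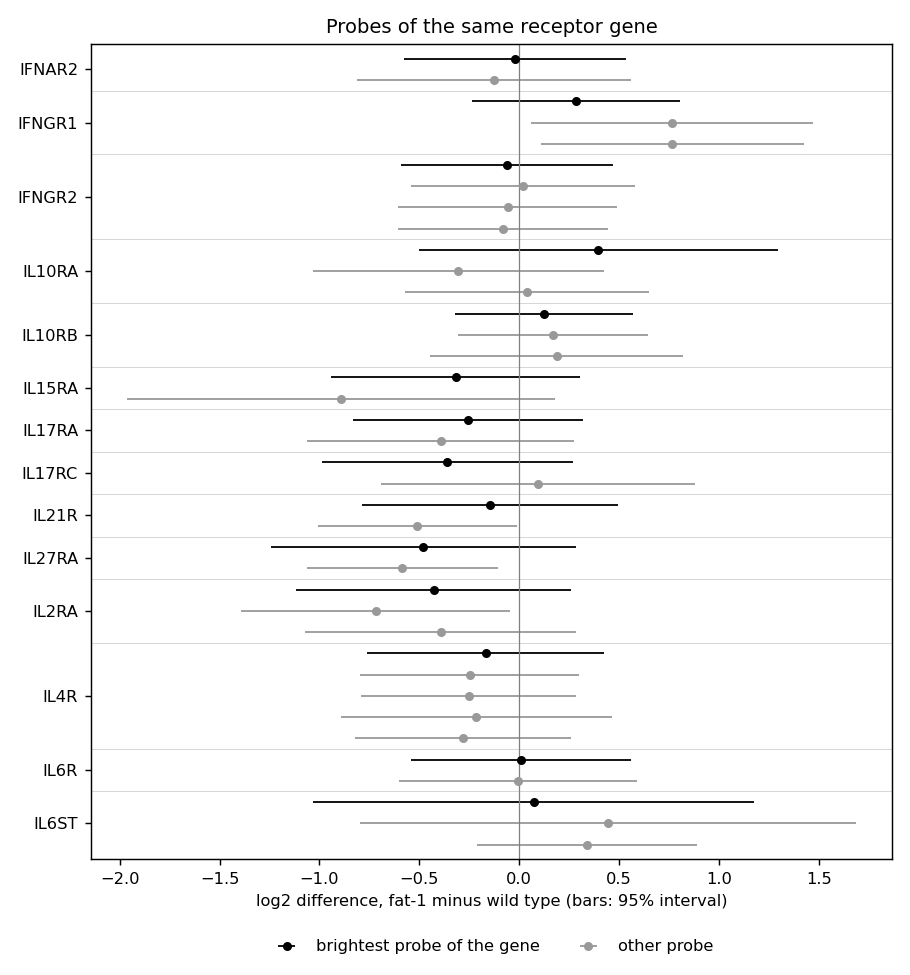
Differences between fat-1 and wild type blood (horizontal axis, log2, bars are 95% intervals) for every tested probe of the 14 receptor genes with at least 2 tested probes, the brightest probe in black and the others in grey. The intervals lie on one side of 0 at both dimmer IFNGR1 probes (0.77), at one IL2RA probe (-0.72), at the dimmer IL27RA probe (-0.59) and at the dimmer IL21R probe (-0.51).

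Many of the receptor genes lie side by side. Of 36 mapped genes 23 fell into 10 clusters with gaps of at most 1 Mb. On chromosome 1, IFNGR2, IFNAR1, IL10RB and IFNAR2 lie within 217 kb, between 1187293 and 1404280, with differences of -0.06, 0.11, 0.12 and -0.02. On chromosome 9, IL20RA and IFNGR1 lie within 113 kb of each other, with IL22RA2 between them, and had 0.56 and 0.29. IL2RA and IL15RA on chromosome 13 had -0.43 and -0.32, IL4R and IL21R on chromosome 25 had -0.17 and -0.15, and IL17RC and IL17RE on chromosome 22 had -0.36 and -0.42. These are descriptions of position and were not tested.

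Most ligands of these receptors were too weak to measure. Of 35 on the array, 10 could be tested and 18 had a brightest probe not well above background in any animal, among them IL3, IL5, IL7, IL13, IL17A, IL21, IL22, CSF2 and CSF3. No ligand passed the adjusted threshold, 2 were higher (IFNG and TSLP) and 1 was lower (IL10) at an unadjusted p under 0.05, and the median difference was 0.00. IFNG was kept only through the fat-1 arrays, so it had to differ and adds nothing to that count. At that level 5.58% of all genes were higher and 6.36% lower.

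IFNG, the interferon gamma that IFNGR1 and IFNGR2 bind, was measured in fat-1 blood only. It read -3.12, -3.27 and -1.91 in the fat-1 animals and lacked signal well above background throughout the wild type group, where the measured values were -6.81, -5.28 and -4.83. On processed intensity the fat-1 mean was 3.99 times a wild type reference. That reference was the mean, over wild type arrays, of the lowest signal that counts as well above background, or the probe's own value where higher. The adjusted p of IFNG in limma was 0.107, and 0.0101 to 0.483 over the alternatives. Because only the fat-1 arrays carried IFNG past the filter, neither that ratio nor these p-values are independent support. With normexp background correction the difference was 0.59 on the log2 scale, a smaller change, so 3.99-fold is not a firm minimum. Of the NK and cytotoxic cell markers, 2 of 11 were higher and 1 lower at an unadjusted p under 0.05 in limma. Of all genes 5.58% were higher and 6.36% lower at that level. The NK and cytotoxic cell markers had a median of 0.36, and none was without signal. Their summed level was 43.5 to 87.1 in fat-1 and 38.1 to 61.4 in wild type blood. Their part in the IFNG difference was not tested.

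IL10, the anti-inflammatory cytokine that IL10RA and IL10RB bind, lay lower in all fat-1 animals. It read -1.29, -1.41 and -1.27 in fat-1 and -0.65, -0.41 and -0.33 in wild type blood. The groups were well apart and each was tight. The difference was -0.86 ± 0.20, with an unadjusted p of 0.0025 and an adjusted p of 0.185 in limma. It had an unadjusted p under 0.05 in all 16 fits, the one reported included. It passed the adjusted threshold in 1 of them, with array weights, where 1971 of 26823 probes passed. TSLP, a ligand of a receptor that contains IL7R, had 0.68 ± 0.22 (adjusted p = 0.317 in limma).

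Downstream of the receptors, all 10 JAK kinases and STAT factors on the array, of 11 listed, were measured, JAK3 not being among them. They had a median of -0.03, with 0 higher and 1 lower of 10 at an unadjusted p under 0.05 in limma. Of all genes 5.58% were higher and 6.36% lower at that level. STAT5A, which carries signals of IL2RG-containing receptors, read -1.98, -2.15 and -2.15 in fat-1 and -1.48, -1.26 and -1.70 in wild type blood. All fat-1 animals were lower, with a difference of -0.61 ± 0.21 and an adjusted p of 0.337 in limma. The related STAT5B had 0.03 ± 0.23 (adjusted p = 0.949 in limma). STAT4, which carries the IL-12 signal, had 0.86 ± 0.39 (adjusted p = 0.397 in limma), but -0.09 with normexp background correction. Among 16 inhibitors of cytokine receptor signalling 0 were higher and 1 was lower, with a median of -0.03. That was USP18, an interferon-induced inhibitor that binds IFNAR2, at -0.65 ± 0.22 (adjusted p = 0.324 in limma). Next came SOCS1, the feedback inhibitor of interferon gamma and IL-2 signals, at -0.74 ± 0.36 (adjusted p = 0.413 in limma). CISH, another of these inhibitors, went the other way, at 0.43 ± 0.21 (adjusted p = 0.414 in limma). Of 16 other cytokine receptor chains none reached an unadjusted p under 0.05, with a median of 0.03. CNTFR, the ciliary neurotrophic factor chain, had -0.75 ± 0.43 and IL1RAP, the accessory chain of the IL-1 receptor, 1.24 ± 0.73, or -0.02 with normexp, at a probe well above background on 2 fat-1 arrays and 1 wild type array. None of these 3 lists had a member past the adjusted threshold in limma as reported. With array weights TSLP, STAT5A, STAT4, USP18 and IL1RAP passed, but so did 1971 of 26823 probes, against 46 as reported. The weights ran from 0.31 to 5.68, so that fit rests mostly on few arrays.

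Some receptor genes with small or scattered differences depended on the background correction. With normexp the sign turned for IFNAR1 (-0.14), IFNAR2 (0.00), IL2RB (-0.07), IL7R (-0.01) and IL6ST (-0.33), and the differences of IL10RA and IL20RA shrank to 0.12 and 0.27.

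The counts over receptor genes depended on single animals. Without fat-1 replicate 1, fat-1 replicate 2 or wild type replicate 1 no receptor gene had an unadjusted p under 0.05 in limma, without fat-1 replicate 3 there were 2 (IL10RA and IL13RA1), without wild type replicate 2 there was 1 (IL20RA) and without wild type replicate 3 there was 1 (IL2RG). Genes without overlap numbered 3, 2 and 7 without fat-1 replicates 1 to 3 and 2, 3 and 4 without wild type replicates 1 to 3, and IL2RG was among them each time. With 5 arrays a lack of overlap is also more frequent elsewhere, at 25.5% to 49.6% of all genes. No receptor gene passed the adjusted threshold with any 1 of the 6 animals left out.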

How the data were processed

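RNA of whole blood was labelled with Cy3 and hybridised to 1-colour Agilent bovine arrays, 1 per animal, per the labels' protocols. Per the submitters' processing notes, spot intensity comes from Agilent Feature Extraction 10.7.1.1. Processed intensity is background-subtracted per the file headers and is not scaled between arrays. It uses a surrogate value for the dimmest spots, which narrows their spread. Raw mean and background intensity, and spot flags of 0 or 1 (well above background, outlier, saturated), were used as deposited. The value table of the authors holds log2 values, as deposited, and each column correlated at r of 0.999 or above with its own array. Its scaling was not given in the sources used here. In wild type replicate 2, 56 gene names had been altered, so names came from another array. Positions are on Btau_3.1 per the file headers.

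Levels are log2 of processed intensity minus the 75th percentile of each array. Spots of a probe were averaged, 32 probes with an outlier flag were left out, and 26823 probes were kept that stood well above background on 3 or more of 6 arrays. Groups were compared with lmFit and eBayes in limma 3.58.1 (R 4.3.3), with Benjamini-Hochberg adjustment over all probes kept and a threshold of 0.05. Animals are the replicates, and their number limits the precision. The fit was tested on simulated data. Other genes were named through their accession or symbol in the RefSeq gene table of ARS-UCD2.0 (20690 probes by accession, 10711 by symbol, 385 by an older symbol, 11867 without a match).

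The members, the 15 gene lists and the tests were chosen with earlier results of these data known. Every receptor gene is named. Those with an unadjusted p under 0.05 or without overlap are given for every animal, as are other probes of that kind, and IL7R, IL10RA, IL13RA1 and the brightest IFNGR1 probe were added after their values were seen. Of the lists of ligands, JAK and STAT genes, inhibitors and other receptor chains, the 2 smallest p, or all at an unadjusted p under 0.05, are named. STAT5B and CISH were added after their values were seen. Marker lists are given by counts and sums, with CR2 and BLK named after their values were seen. Lists for eosinophils (2 tested, median difference 0.20), basophils and mast cells (5, -0.26), dendritic cells (7, -0.27), neutrophils (8, 0.11), platelets (6, 0.49) and red cells (9, 0.96) had no member past the adjusted threshold. Replicate numbers did not pair the animals. The alternatives were normexp background correction (offset 50), quantile scaling, the authors' value table, other filters on dim probes, an intensity trend, array weights, a mean over a gene's probes, a replicate block and leaving out each array.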

Additional observations from a re-analysis of the deposited data

How the results depend on the processing

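In all 16 alternatives run on it, 0 receptor genes passed the adjusted threshold. The count of all probes called was 46 as reported, 116 with normexp background correction, 16 with quantile scaling, 16 in the authors' value table, 14 with no filter on dim probes, 121 with an intensity trend, 1971 with array weights and 8 to 55 with 1 array left out. Receptor genes at an unadjusted p under 0.05 numbered 1 as reported, where 11.9% of all genes reached that level. There were 0 with normexp, quantile scaling, the authors' value table and no filter. Of all genes 10.63%, 12.64%, 12.63% and 9.705% reached that level in these settings. There were 2 receptor genes with probes well above background on all 6 arrays, an intensity trend or a mean over a gene's probes. Of all genes 12.97%, 14.21% and 11.97% did so there. With probes matching other names left out (chosen after seeing the data) there were also 2, and the share of all genes was not taken. With array weights there were 8 of 25, where 29.95% of all genes did so. With 1 array left out there were 0 to 2, where 7.505% to 22.3% of all genes did so. Receptor genes without overlap numbered 1 as reported, where 20.6% of all genes had none. They numbered 2 with normexp, quantile scaling, the authors' value table and probes matching other names left out, and 4 with that mean. For these settings the share of all genes was not taken. With 1 array left out they numbered 2 to 7, where 25.5% to 49.6% of all genes had none. Other genes of the pathway at an unadjusted p under 0.05 numbered 5 as reported, 14 with array weights and 2 to 10 with 1 array left out. Of all genes 11.9%, 29.95% and 7.505% to 22.3% did so in these fits. The 5 as reported include IFNG, which was kept only through the fat-1 arrays and adds nothing to that count. IFNG had an unadjusted p under 0.05 in 14 of the 15 fits that kept it. The cause of the changes in these counts was not tested. The dimmer IL21R probe had -0.71 with array weights, where it passed. IL2RG ranged from -0.63 to -0.35. Of the 25 receptor genes, 14 kept the sign of their difference in every alternative that keeps the brightest probe and 11 did not.

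With the replicate number as a block, 104 probes were called, and no receptor gene was. In that fit 1 receptor gene (IL13RA1 in place of IL2RG) and 9 other pathway genes had an unadjusted p under 0.05, as did 13.7% of all genes. IFNG, kept only through the fat-1 arrays, passed with that block and with array weights. Deviations of same-numbered animals correlated at 0.12, 0.19 and 0.01 over probes, and fat-1 replicate 3 correlated better with another number, so the labels' numbers were not taken as pairs.

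Slide as a block was not run, because each slide holds 1 group. The median of all probes was -0.06 as reported, -0.15 with normexp and with no filter, and -0.02 with quantile scaling, where the receptor median was 0.06. Signal over background limits the 13 receptor genes that were not tested, for which absence was not shown.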
